A study of Mus musculus with 6 samples.

Results

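The genes described here mark the steps by which new neurons and other brain cells are made: dividing cells, neural progenitors and young neurons. The set held 33 genes, chosen by name. Each was represented by the probe row that named it alone and had the highest mean over the 6 arrays. Of these, 32 were measured, among 22180 genes with such a row. No row used here named Ccnb1, the mitotic cyclin B1, so it has no value. The rule used no difference between the groups.

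The ethanol and saline groups were compared on 6 Affymetrix whole-transcript arrays of total RNA labelled as whole hippocampus. The ethanol group, 3 arrays, came from C57BL/6J mice, an inbred laboratory strain, given subcutaneous ethanol, 2.5 g/kg, dissolved in 0.15 M NaCl. The saline group, also 3 arrays, came from littermates of the same strain injected with saline. Both groups were injected at postnatal day 4 and again at day 7, each time with 2 doses given 2 hours apart. An array measured a pool of 3 mice. The study used 18 males, and pups were matched for sex and weight within litters. The recorded age conflicts: the characteristics and the design text say 21 days, and the treatment protocol says day 70. All values are log2 expression levels, 1 per gene and array, and all differences are ethanol minus saline on that scale.

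New neurons arise when progenitors leave the cell cycle and pass through an immature stage. Progenitors are known for Sox2, Nes and Hes5. Intermediate progenitors of the hippocampal dentate gyrus are known for Eomes, and the young neurons that follow for Dcx, Sox4 and Sox11. Dividing cells of any type carry the replication genes in S phase and the cyclin B, kinesin and spindle genes in mitosis. In the hippocampus of rodents the dentate gyrus keeps making granule neurons after birth, and less so with age. In the cerebellum the external granule layer makes granule neurons during the first postnatal weeks and is then used up.

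Promoters of cell cycle genes are known for shared elements, and 4 are shown because their genes stand for the replication and mitosis parts of the set. They are RefSeq sequences of mouse build GRCm38.p6, from 250 bases before to 50 bases after the start. Capitals mark 3 motifs, found on either strand: the cell cycle homology element TTTGAA, the CCAAT box, and the E2F spellings TTTCCCGC, TTTCGCGC, TTTGCCGC and TTTGGCGC. Overlapping matches run together in capitals. The regions are chr8:75109259-75109558 on the plus strand for Mcm5, chr1:128359656-128359955 on the minus strand for Mcm6, chr10:69352863-69353162 on the minus strand for Cdk1 and chr11:99024140-99024439 on the minus strand for Top2a.
Mcm5: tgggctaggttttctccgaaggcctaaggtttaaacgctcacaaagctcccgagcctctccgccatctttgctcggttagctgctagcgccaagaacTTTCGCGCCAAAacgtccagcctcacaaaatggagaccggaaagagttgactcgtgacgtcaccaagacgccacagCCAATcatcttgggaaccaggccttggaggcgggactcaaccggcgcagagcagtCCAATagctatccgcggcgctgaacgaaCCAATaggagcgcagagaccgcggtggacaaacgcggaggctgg
Mcm6: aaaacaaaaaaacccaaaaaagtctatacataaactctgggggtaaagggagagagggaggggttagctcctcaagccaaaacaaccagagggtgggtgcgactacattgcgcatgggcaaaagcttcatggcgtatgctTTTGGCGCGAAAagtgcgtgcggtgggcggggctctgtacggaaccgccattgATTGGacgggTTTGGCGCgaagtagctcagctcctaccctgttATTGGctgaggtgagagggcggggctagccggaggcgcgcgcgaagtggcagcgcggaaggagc
Cdk1: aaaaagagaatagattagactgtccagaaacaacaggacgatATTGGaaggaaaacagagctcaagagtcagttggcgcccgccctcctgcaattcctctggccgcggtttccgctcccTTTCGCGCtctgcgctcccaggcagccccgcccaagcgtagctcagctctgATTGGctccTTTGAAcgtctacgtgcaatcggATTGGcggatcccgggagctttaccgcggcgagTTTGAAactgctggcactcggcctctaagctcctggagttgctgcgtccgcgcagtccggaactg
Top2a: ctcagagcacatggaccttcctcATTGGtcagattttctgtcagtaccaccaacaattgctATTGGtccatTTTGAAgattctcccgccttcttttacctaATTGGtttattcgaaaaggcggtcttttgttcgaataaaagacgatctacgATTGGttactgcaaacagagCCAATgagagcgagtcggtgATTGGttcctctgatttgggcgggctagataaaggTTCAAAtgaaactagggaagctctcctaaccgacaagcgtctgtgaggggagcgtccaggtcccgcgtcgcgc
The table of promoters held 26 of the 33 genes. An E2F spelling lay in 3 of 7 replication genes (Mcm3, Mcm5 and Mcm6), against 2.6% of all 27025 genes with a promoter. It also lay in 1 of 8 cyclin and mitosis genes and in 1 of 8 immature neuron genes. TTTGAA lay in 5 of 8 cyclin and mitosis genes, against 20.2% of all genes. It also lay in 1 of 7 replication, 1 of 8 immature neuron and 1 of 3 progenitor genes. CCAAT lay in 22 of the 26, against 41.1% of all genes, and in 7 of 8 immature neuron genes. The 4 promoters shown each held several matches, whereas those of Tyms, Birc5, Nes and Draxin held none. Those of Pcna and Rrm2 held 1 CCAAT box each and no other match. These matches describe letters in a window and were not tested.

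Across the arrays, the labelled tissue was checked against markers. All 12 measured genes of cerebellar neurons were above the background proxy on all 6 arrays. That proxy is the 95th percentile, on each array, of 1405 rows naming an olfactory or vomeronasal receptor, genes little used in brain, and it lay between 6.90 and 7.07. Gabra6, a receptor gene typical of cerebellar granule cells, averaged 12.21 ± 0.09 in ethanol and 12.13 ± 0.09 in saline (SD, n = 3 each). Of 13 dentate granule cell genes 8 passed it on all 6 arrays, among them Prox1, Dock10 and Il16, and 5 on none, which were Dsp, C1ql2, Tdo2, Lct and Glis3. Of 13 pyramidal neuron genes 6 passed it on all 6 arrays, among them Nrn1, Camk2a and Wfs1, and 7 on none, among them Emx1, Emx2 and Neurod6. The part of cerebellar RNA in the levels below was not tested. Because binding varies from probe to probe, the order of 2 genes by level is not an order of their transcripts.

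The share of genes above the background proxy varied by role. Of the 32 genes, 12 were above the background proxy on all 6 arrays, 6 on some arrays and 14 on none, whereas 48.7% of all genes were above it on all arrays. Genes of young neurons and progenitors made up most of the first class: 7 of 12 immature neuron genes and 2 of 3 progenitor genes. For immature neuron genes this was 58.3%, near the share of all genes. The 7 were Sox4, Eomes, Draxin, Tubb3, Stmn1, Stmn2 and Cd24a. Dcx and Mex3a passed the proxy on 3 arrays each, Igfbpl1 on 4, Dlx2 on 5 and Sox11 on none. The first class also held 2 of 7 replication genes and 1 of 10 cyclin and mitosis genes. That 1 was Ccnd2, a cyclin that acts in G1 and not in mitosis. All 9 other measured cyclin and mitosis genes were below the proxy on every array. This held in both groups, with 1 of 10 such genes above it on each ethanol array and on each saline array. In whole tissue, fewer cells of a type and less RNA per cell cannot be told apart.

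**Figure D1:**
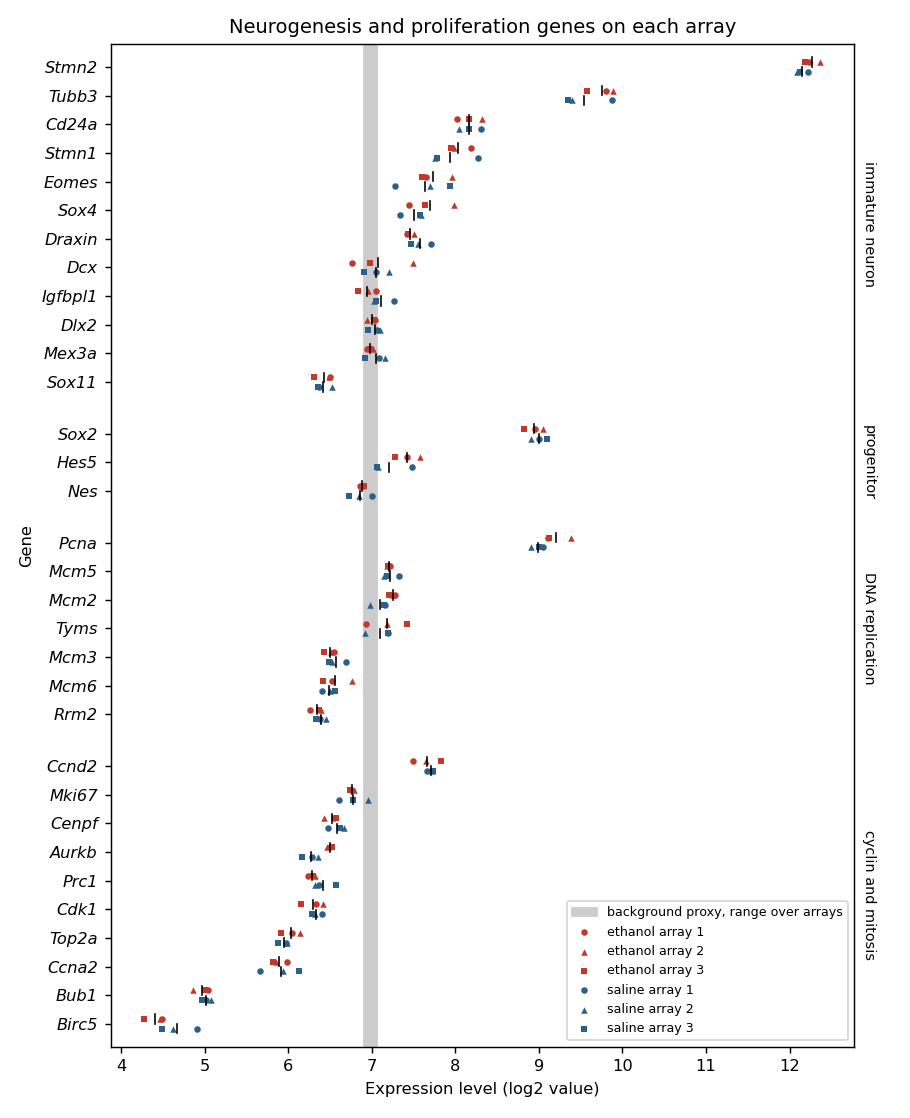
Log2 expression level (x axis) of the 32 measured genes (y axis, by role), with ethanol arrays in red above saline arrays in blue; each point is 1 array, the black ticks are group means and the grey band is the range of the background proxy. Cyclin and mitosis genes other than Ccnd2 lie below the band or, for Mki67, with 1 saline point inside it, and the groups overlap for most genes.

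No gene of the set passed the test between the groups. Limma, fitted on all 41345 rows, called 0 of the 32 at an adjusted p under 0.05, where it also called 0% of all rows, and the adjusted p of the 32 ranged from 0.857 to 0.994. At an unadjusted p under 0.05 there was 1 of 32, Aurkb, against 3.18% of all genes. Over the set 15 genes were higher and 17 lower in ethanol, with a median difference of -0.01, beside 57.2% of all genes higher and a median of 0.02 over all genes. That balance moved with the scaling between arrays: 21 were higher and 11 lower after median centring, 20 and 12 after quantile normalization and 18 and 14 after cyclic loess. The groups did not overlap for 3 genes higher in ethanol (Mcm2, Pcna and Aurkb) and 1 lower (Prc1), against 5.74% and 4.72% of all genes. For 27 of the 32 genes the 95% interval of the difference lay within 0.5 of 0 in both directions, which is a fold of 1.41. Over all genes this held for 20361 of 22180. In the set it held for 8 of the 12 genes above the background proxy on all 6 arrays and for 19 of the other 20. The exceptions in the set were Sox4, Eomes, Tubb3, Hes5 and Birc5.

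**Figure D2:**
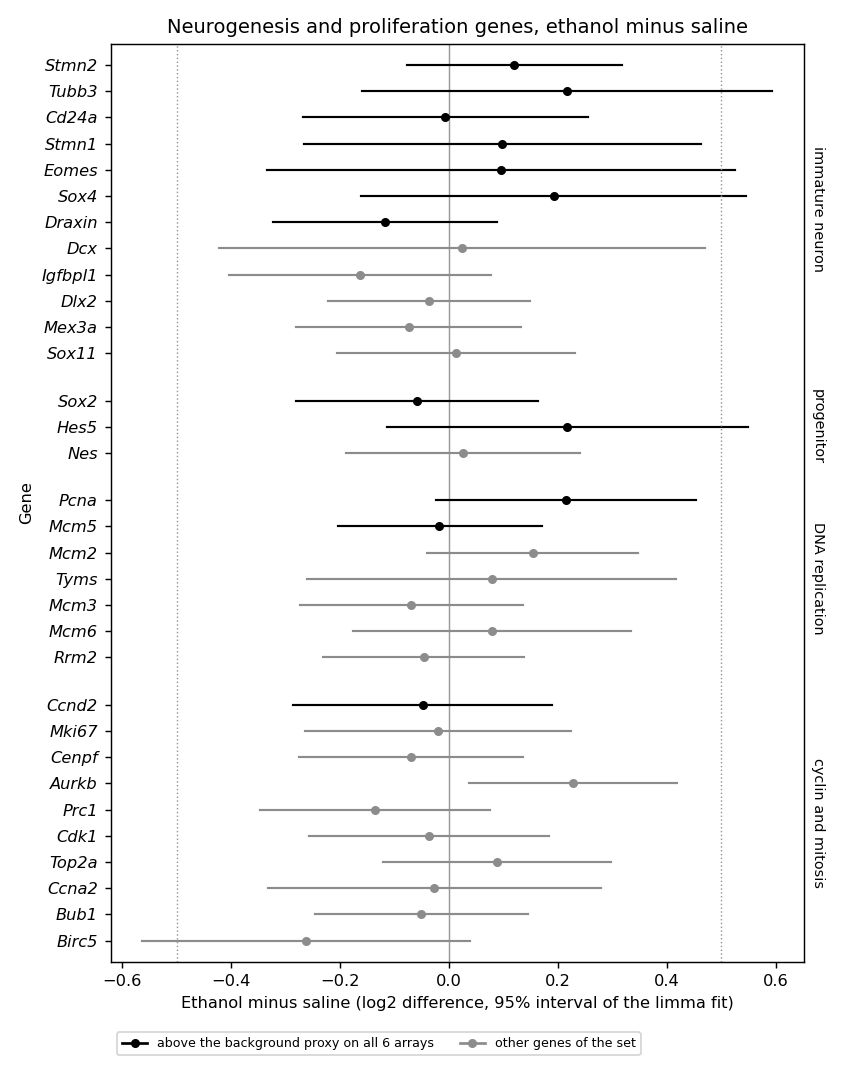
Ethanol minus saline (x axis, log2 difference) for the 32 genes by role (y axis), with the 95% interval of the limma fit; black marks genes above the background proxy on all 6 arrays and the dotted lines stand 0.5 to either side of 0. Every interval but that of Aurkb spans 0, and Aurkb lies below the proxy.

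Immature neuron genes showed no shared direction: 7 of 12 were higher and 5 lower in ethanol, with a median difference of 0.02, and 0 were called. Dcx, doublecortin, binds microtubules of migrating young neurons and lies on chromosome X from 143855842 to 143933396 (GRCm38). It stood at 6.77, 7.49 and 6.98 in ethanol arrays 1 to 3, against 7.05, 7.21 and 6.91 in saline arrays 1 to 3. The highest and the lowest of the 6 values were both ethanol arrays, so the saline values lay inside the ethanol range. The difference was 0.02 ± 0.19 (SE, 3 arrays against 3), with a 95% interval of -0.42 to 0.47 and an adjusted p of 0.987 in limma. It was -0.18 without ethanol array 2 and 0.18 without ethanol array 1. Dcx passed the background proxy on 3 of the 6 arrays.

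The SoxC factors Sox4 and Sox11 switch on genes of neuronal differentiation. Sox11 stood at 6.50, 6.48 and 6.30 in ethanol and at 6.37, 6.53 and 6.35 in saline, below the proxy on every array. Its difference was 0.01 ± 0.09 (SE). Sox4, printed because it varied widely, stood at 7.45, 7.99 and 7.64 in ethanol and at 7.34, 7.59 and 7.58 in saline. As for Dcx, ethanol array 2 was the highest, and the groups overlapped (0.19 ± 0.15, adjusted p = 0.866 in limma). The difference was 0.05 without ethanol array 2, 0.11 without saline array 1 and 0.31 without ethanol array 1. A second row naming Sox4 averaged 5.56 in both groups.

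Eomes, or Tbr2, is also known from unipolar brush cells of the cerebellum, where it stays on in the adult. It stood at 7.65, 7.96 and 7.60 in ethanol, against 7.28, 7.70 and 7.94 in saline. Saline array 1 was the lowest and the groups overlapped. The difference was 0.09 ± 0.18, with an interval of -0.33 to 0.52. Leaving out 1 array at a time it ran between -0.08 without saline array 1 and 0.24 without saline array 3. Calb2, calretinin, which marks both immature dentate neurons and unipolar brush cells, averaged 11.75 ± 0.04 in ethanol and 11.57 ± 0.04 in saline (SD, n = 3 each). Its groups did not overlap, with ethanol higher, as in 5.74% of all genes. It was not called (difference 0.18 ± 0.07 SE, adjusted p = 0.857 in limma).

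Tubulins and the stathmins that bind them serve the growth of axons and dendrites. Stmn2, a stathmin of growing axons that mature neurons keep, stood at 12.24, 12.37 and 12.19 in ethanol and at 12.22, 12.09 and 12.13 in saline. Only saline array 1 reached the ethanol range, and the difference was 0.12 ± 0.08. It was 0.03 after cyclic loess, which removes a trend with brightness. Tubb3, neuronal beta-tubulin, stood at 9.81, 9.88 and 9.58 in ethanol, against 9.87, 9.40 and 9.35 in saline. Saline array 1 lay among the ethanol arrays, and both other saline arrays lay below them. The difference was 0.22 ± 0.16 with all arrays. It was 0.12 without saline array 3, 0.15 without saline array 2 and 0.38 without saline array 1, where the adjusted p was 0.461 in limma.

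Saline arrays 2 and 3 were also the lowest for Stmn1, stathmin 1, and for Hes5, a Notch target that holds progenitors undifferentiated. Stmn1 stood at 8.18, 7.98 and 7.94 in ethanol and at 8.27, 7.76 and 7.78 in saline. Hes5 stood at 7.42, 7.58 and 7.28 in ethanol and at 7.48, 7.07 and 7.07 in saline. Saline array 1 was the highest of all for Stmn1 and lay among the ethanol arrays for Hes5. With all arrays Stmn1 differed by 0.10 ± 0.15 and Hes5 by 0.22 ± 0.14. Leaving out 1 array at a time, the Stmn1 difference ran between 0.01 without saline array 2 and 0.26 without saline array 1, and was 0.02 without ethanol array 1 or saline array 3. The Hes5 difference ran between 0.14 without ethanol array 2 and 0.35 without saline array 1. Without saline array 1 the adjusted p was 0.522 for Stmn1 and 0.472 for Hes5 in limma. A second row naming Hes5 differed by 0.05 ± 0.12.

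Other genes of young neurons were near the proxy or overlapped. Igfbpl1, an insulin-like growth factor binding protein-like gene of newborn neurons, stood at 7.06, 6.95 and 6.83 in ethanol and at 7.27, 7.02 and 7.05 in saline (-0.16 ± 0.10, adjusted p = 0.857 in limma). Of its 6 values 4 passed the proxy. Draxin, a secreted axon guidance protein, stood at 7.43, 7.50 and 7.44 in ethanol, against 7.70, 7.55 and 7.47 in saline, with overlapping groups. Cd24a, a surface protein of young neurons, averaged 8.16 ± 0.15 in ethanol and 8.17 ± 0.13 in saline (SD, n = 3 each). Mex3a, an RNA-binding protein, and Dlx2, a homeobox factor of interneuron precursors, averaged 6.98 ± 0.04 and 7.00 ± 0.05 in ethanol and 7.05 ± 0.12 and 7.04 ± 0.08 in saline.

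Of the 3 progenitor genes Hes5, given above, differed by 0.22, and Sox2 and Nes by less. Sox2, which maintains neural stem cells and is also carried by astroglia, stood at 8.95, 9.05 and 8.82 in ethanol and at 9.00, 8.91 and 9.10 in saline. Nes, the intermediate filament nestin, stood at 6.86, 6.88 and 6.90 in ethanol and at 7.00, 6.84 and 6.72 in saline, and passed the proxy on no array of either group. Their differences were -0.06 ± 0.09 and 0.03 ± 0.09. Over the 3 genes the median was 0.03.

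**Figure D3:**
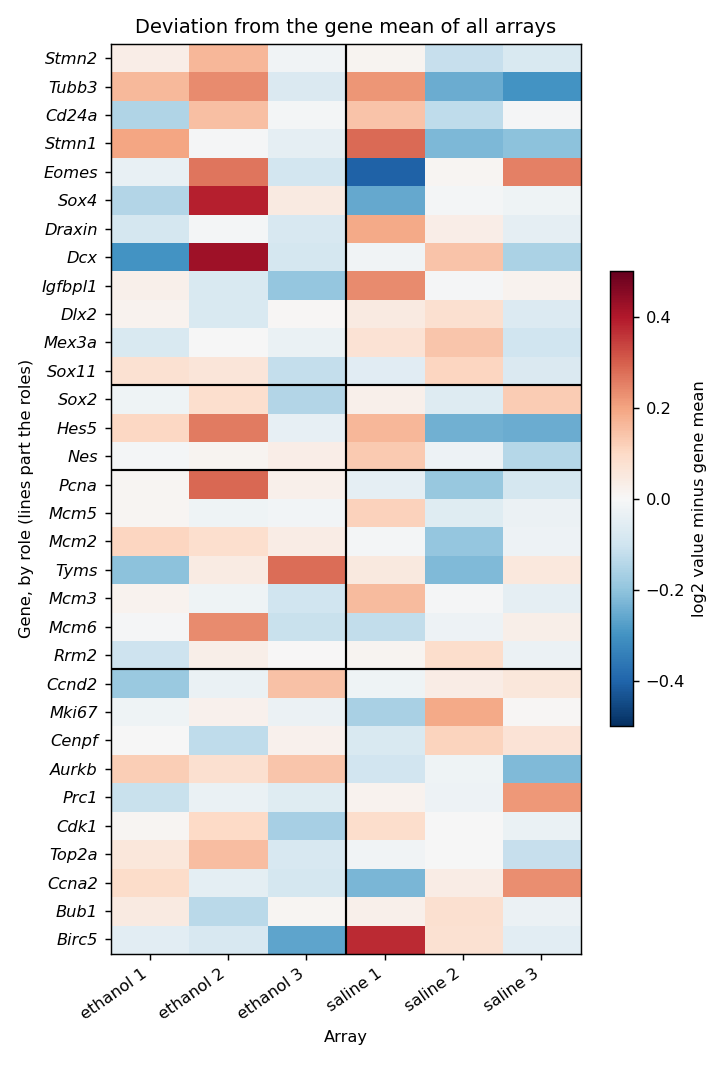
Log2 value of each gene (y axis, by role) minus its mean over all 6 arrays, by array (x axis; ethanol left, saline right); red is above the mean and blue below. Dcx and Sox4 are highest on ethanol array 2, and Tubb3, Stmn1 and Hes5 are lower on saline arrays 2 and 3 than on the other 4 arrays.

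For DNA replication genes the median difference was 0.08. Of the 7, 4 were higher and 3 lower in ethanol, and 0 were called. Without ethanol array 2 the median was -0.01, without ethanol array 3 it was -0.02 and without saline array 2 it was -0.01. Without any 1 of the other arrays it lay between 0.04 and 0.11. Pcna, the sliding clamp of DNA polymerases, which also serves DNA repair outside S phase, stood at 9.11, 9.38 and 9.12 in ethanol, against 9.05, 8.91 and 9.01 in saline. Every ethanol array was above every saline array. The difference was 0.21 ± 0.10 (adjusted p = 0.857 in limma), and 0.12 without ethanol array 2. Mcm2, a subunit of the helicase that unwinds DNA at replication origins, stood at 7.28, 7.26 and 7.21 in ethanol and at 7.16, 6.98 and 7.15 in saline. Its groups did not overlap either, and the difference was 0.15 ± 0.08 (adjusted p = 0.857 in limma).

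The other subunits of the same MCM helicase that are in the set did not share that arrangement. Mcm3 stood at 6.55, 6.51 and 6.43 in ethanol and at 6.69, 6.53 and 6.49 in saline (-0.07 ± 0.09). Mcm5 stood at 7.22, 7.19 and 7.20 in ethanol and at 7.33, 7.15 and 7.18 in saline (-0.02 ± 0.08). Mcm6 averaged 6.57 ± 0.18 in ethanol and 6.49 ± 0.08 in saline (SD, n = 3 each), and all 3 genes overlapped between groups. Tyms, thymidylate synthase, and Rrm2, a ribonucleotide reductase subunit, both supply nucleotides for DNA synthesis. Tyms averaged 7.18 ± 0.24 in ethanol and 7.10 ± 0.16 in saline, and Rrm2 6.34 ± 0.07 in ethanol and 6.39 ± 0.06 in saline.

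Of the cyclin and mitosis genes, 2 of 10 were higher and 8 lower in ethanol, with a median of -0.04 and 0 called. The balance came out as 5 and 5 after median centring or cyclic loess and as 6 and 4 after quantile normalization. The ethanol difference of all genes moved with brightness, with a median of -0.03 in the second of 10 equal bins from the dimmest and 0.09 in the brightest. Of the cyclin and mitosis genes 9 of 10 lay below the background proxy. The part of brightness in this balance was not tested.

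Aurkb, the Aurora B kinase of chromosome segregation, lies on chromosome 11 from 69045624 to 69051664. It stood at 6.51, 6.46 and 6.52 in ethanol, against 6.29, 6.36 and 6.16 in saline. All ethanol arrays were above all saline arrays, and every value was below the background proxy. The difference was 0.23 ± 0.08, with an interval of 0.04 to 0.42 (unadjusted p = 0.0264, adjusted p = 0.857, limma). Birc5, survivin, and Incenp belong to the same chromosomal passenger complex. Birc5 had a difference of the other sign, at 4.49, 4.46 and 4.28 in ethanol and 4.91, 4.62 and 4.49 in saline. Ethanol array 1 and saline array 3 met at the same value to 2 decimals, and the difference was -0.26 ± 0.13 (adjusted p = 0.857 in limma). Incenp, from the wider list, averaged 7.32 ± 0.03 in ethanol and 7.14 ± 0.03 in saline (SD, n = 3 each), above the proxy on all arrays. Its groups did not overlap, with ethanol higher, as in 5.74% of all genes (0.19 ± 0.07 SE, adjusted p = 0.857 in limma). Of these 3 genes, Aurkb and Incenp were higher in ethanol and Birc5 lower. Birc5, like Aurkb, was below the proxy on every array, and none of the 3 was called.

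Mki67, the Ki-67 antigen of cycling cells, stood at 6.75, 6.79 and 6.74 in ethanol and at 6.61, 6.96 and 6.78 in saline. The ethanol values lay inside the saline range, and the difference was -0.02 ± 0.10. Top2a, the topoisomerase that untangles chromosomes before they part, stood at 6.05, 6.14 and 5.91 in ethanol and at 5.97, 5.99 and 5.87 in saline (0.09 ± 0.09). Prc1, which bundles microtubules of the mitotic midzone, stood at 6.24, 6.32 and 6.29 in ethanol, against 6.37, 6.33 and 6.57 in saline. Its groups were parted by under 0.01, and the difference was -0.14 ± 0.09 (adjusted p = 0.859 in limma). Ccnd2, cyclin D2, stood at 7.50, 7.65 and 7.83 in ethanol and at 7.66, 7.72 and 7.74 in saline, so the saline values lay inside the ethanol range (-0.05 ± 0.10). Cdk1, Ccna2 (cyclin A2), the spindle checkpoint kinase Bub1 and the kinetochore protein Cenpf all had overlapping groups, with differences from -0.07 to -0.03.

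Wider lists of the same steps were set beside the set. Over all genes 57.2% were higher in ethanol, and the median difference was 0.09 in the brightest of 10 equal bins. The part of brightness in the list counts was not tested. Among 36 further immature neuron genes 20 were higher and 16 lower in ethanol (median 0.04), 17 and 19 after cyclic loess. At an unadjusted p under 0.05 there were 3 higher and 1 lower in ethanol, beside 266 higher and 439 lower of all 22180 genes. The higher ones were Sp8, a factor of olfactory bulb interneurons (0.33 ± 0.11, below the proxy), Tubb2a, a tubulin (0.21 ± 0.09), and Calb2. The lower one was Basp1, a membrane protein of growing axons (-0.19 ± 0.08). Ncam1 and Elavl3, an adhesion molecule and an RNA-binding protein of neurons, were bright and differed by 0.11 ± 0.09 and 0.08 ± 0.07. Among 26 further progenitor genes 22 were higher and 4 lower (median 0.07), and 18 and 8 after cyclic loess. Hopx, a marker of quiescent dentate stem cells and of astroglia, averaged 8.06 ± 0.05 in ethanol and 7.86 ± 0.04 in saline (SD, n = 3 each). Vim, vimentin, averaged 10.84 ± 0.02 in ethanol and 10.65 ± 0.05 in saline. Dll1, a Notch ligand, differed by 0.19 ± 0.08 and passed the proxy on 1 array. Fabp7, a lipid carrier of radial glia and of Bergmann glia, differed by 0.20 ± 0.10. Its groups did not overlap, with ethanol higher, as in 5.74% of all genes. Slc1a3, a glutamate transporter of astroglia, differed by 0.07 ± 0.09. None was called.

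Many of these progenitor genes are also astroglial. The astroglia list had 10 of 12 genes higher and 2 lower (median 0.09), 7 and 5 after cyclic loess, with Aqp4, the astrocyte water channel, at 0.26 ± 0.07. All 12 were above the proxy on all 6 arrays. All genes in the brightest of 10 equal bins had a median difference of 0.09. Their median level per array lay between 10.27 and 10.51 in ethanol and between 10.14 and 10.36 in saline. The part of astroglial RNA in the progenitor differences was not tested.

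Among 49 further replication genes 35 were higher and 14 lower (median 0.03), and also 35 and 14 after cyclic loess. Prim1, the primase subunit, was at 0.26 ± 0.09 and passed the proxy on 1 array. Usp1, Dut and Prim2 were bright and differed by 0.07, 0.11 and 0.01. Among 62 further mitosis genes 24 were higher and 38 lower (median -0.02), and 38 and 24 after cyclic loess, so no direction held. The CDK-binding subunits Cks1b and Cks2 had differences of opposite sign, at -0.21 ± 0.07 and 0.32 ± 0.11. Cks1b passed the proxy on 1 array and Cks2 on none. At an unadjusted p under 0.05 there were 2 higher, Cks2 and Incenp, and 2 lower, Cks1b and Plk4, a kinase of centriole copying (-0.24 ± 0.10). Plk4 was below the proxy on every array. Of all 22180 genes 266 were higher and 439 lower at that threshold. The bright genes Anln, Pttg1 and Spc24 differed by -0.01, 0.15 and -0.05. Above the proxy on all arrays were 21 of the 49 and 6 of the 62, against 48.7% of all genes. Genes of cell cycle exit, such as the CDK inhibitor Cdkn1a, the retinoblastoma gene Rb1 and the p53 target Ccng1, had 18 of 20 above it. Of the 20, 17 were higher and 3 lower in ethanol (median 0.06), and 16 and 4 after cyclic loess. Ccng1 differed by 0.21 ± 0.09. No gene of these 3 lists was called.

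**Figure D4:**
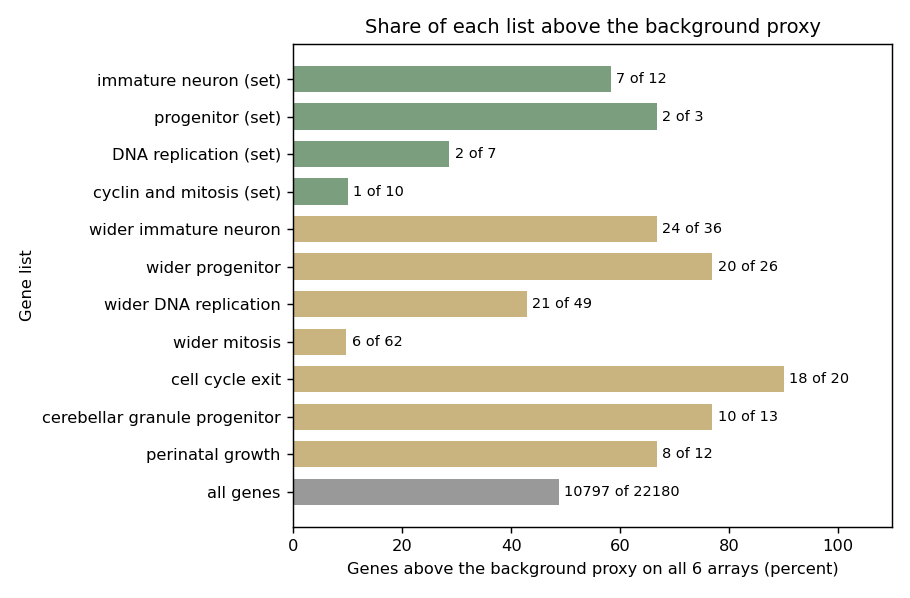
Percent of genes in each list (y axis) above the background proxy on all 6 arrays (x axis), with counts at the bar ends; green bars are the 4 roles of the set, tan bars the wider lists and grey all genes. The 2 mitosis bars are the shortest, at 1 of 10 and 6 of 62 genes.

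Cells that could carry the same genes were described by their markers. Of 13 cerebellar granule progenitor genes 7 were higher and 6 lower (median 0.03), and 4 and 9 after cyclic loess. Atoh1, which defines those progenitors, averaged 6.37 ± 0.10 in ethanol and 6.29 ± 0.12 in saline (SD, n = 3 each) and was below the proxy on all arrays. Mycn, a transcription factor of dividing granule progenitors, averaged 6.09 ± 0.11 in ethanol and 6.15 ± 0.06 in saline, also below it. These were the 2 of the 13 above the proxy on no array, while 10 were above it on all 6. Gli1, also of this list, averaged 7.14 ± 0.03 in ethanol and 7.24 ± 0.08 in saline and was above it on all 6 arrays. Zic1, Barhl2 and Cntn2 were bright and differed by 0.12, 0.14 and 0.11. Oligodendrocyte precursors, which divide in young and adult brain, had 9 of 14 genes higher and 5 lower (median 0.02), 5 and 9 after cyclic loess, with Vcan at 0.25 ± 0.08 and C1ql1 at 0.33 ± 0.11. Their bright genes Ptprz1, Olig1 and Olig2 differed by 0.14, 0.02 and 0.07, and 13 of 14 were above the proxy on all arrays. The precursor marker Pdgfra averaged 8.53 ± 0.05 in ethanol and 8.57 ± 0.13 in saline.

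In the other lists 7 of 9 mature oligodendrocyte genes (median 0.03, with Mobp, Cldn11 and Mal the brightest), 9 of 10 endothelial genes (0.11; Cdh5, Slco1a4 and Cldn5) and 4 of 9 microglial genes (-0.04; C1qb, Cx3cr1 and Csf1r) were higher in ethanol. After cyclic loess 1 of the 9 oligodendrocyte genes, 9 of the 10 endothelial genes and 3 of the 9 microglial genes were. Also higher were 11 of 12 cerebellar neuron genes (0.10, and 7 of 12 after cyclic loess; Car8, Calb1 and Gabra6), 6 of 13 dentate granule cell genes (-0.00; Il16, Dock10 and Prox1) and 5 of 13 pyramidal neuron genes (-0.03; Nrn1, Camk2a and Wfs1). The dentate and pyramidal counts were the same after cyclic loess. Beside these lists, 57.2% of all genes were higher in ethanol. Of the pyramidal genes Fibcd1 was at -0.22 ± 0.08 and Iyd, below the proxy on every array, at -0.19 ± 0.08. No gene of these lists was called.

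Genes known to fall after birth were set beside the set because the recorded ages conflict. Of 12 measured, 8 were above the proxy on all arrays, 1 on some and 3 on none. In ethanol 5 were higher and 7 lower (median -0.02). The imprinted growth genes Peg3, Igf2 and Mest averaged 10.19, 9.75 and 8.72 in ethanol and 10.12, 9.63 and 8.56 in saline. Lin28b, an RNA-binding protein of early development, averaged 5.71 ± 0.14 in ethanol and 5.72 ± 0.34 in saline, and Igf2bp3 6.59 ± 0.03 in ethanol and 6.67 ± 0.08 in saline (SD, n = 3 each), all below the proxy. Lin28a and Hmga2 averaged 7.66 and 7.21 in ethanol and 7.69 and 7.34 in saline, above the proxy on all 6 arrays. Hmga2 was lower on every ethanol array, as 4.72% of all genes were, and was not called (adjusted p = 0.857 in limma). The series holds no array of a stated other age, so these levels and those of the mitosis genes give no age, and which of day 21 and day 70 applies was not tested.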

How the data were processed

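The deposited table held log2 values, 1 per probe row and array. The log2 scale was read from the values. RNA was amplified and biotin-labelled before hybridization, per the labels' protocols. How the authors corrected, summarized and normalized the signal is not given in the sources used here. The submitters' processing notes name build mm 10. A row was used where GEO's platform annotation named 1 gene for it. Array medians lay between 6.55 and 6.66. Precision is limited by having 6 arrays.

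The test was the two-sided moderated one of limma 3.58.1 (R 4.3.3), without covariates, on every row, with Benjamini-Hochberg adjustment across the 41345 rows. SE and intervals are those of this fit. The array, a pool of 3 mice, was the replicate. The labels do not say that pools share no litter, so p-values measure the spread between pools. An exact permutation test of 3 against 3 cannot go below 0.1. The script was tested on simulated data.

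The 33 genes and the lists were chosen with earlier results of these data known. Lists were described by counts and medians, with no test. Values on every array are printed for Dcx, Sox11, Eomes, Nes, Mki67, Top2a and Ccnd2 and, in each role, for the 3 genes with the smallest p and the 2 with the highest mean. Sox4, Stmn1 and Draxin were added after their values were seen. Of other lists up to 3 genes with the smallest p under 0.05 and up to 3 with the highest mean are named, and a few markers are given for their levels. Basp1 and Plk4 were named after their values were seen, to complete the counts. Alternatives covered scaling, the prior, row filters, array weights, the replicate block, the row per gene, thresholds and leaving out arrays.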

Additional observations from a re-analysis of the deposited data

How the results depend on the processing

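Limma called 0 genes of the set under each of the 15 alternatives, and also at adjusted p thresholds of 0.1 and 0.25. The filter to rows above the median kept 20 of the 32 genes, and the others were not tested there. Among the genes each alternative kept, no difference of 0.1 or more in size changed sign. Smaller ones did: 6 under median centring, 5 under quantile normalization, 3 under cyclic loess and 2 to 5 without 1 array. Leaving out 1 array at a time gave median differences of -0.02 to 0.01 over the 32 genes, -0.02 to 0.07 over immature neuron genes, -0.01 to 0.10 over progenitor genes, -0.02 to 0.11 over replication genes and -0.09 to -0.03 over cyclin and mitosis genes. The difference of Stmn2 moved to 0.03 under cyclic loess, and the cause was not tested. No pairing by array number was evident. Deviations of same-numbered arrays correlated at 0.101, -0.056 and 0.038, and those of differently numbered arrays between -0.128 and 0.099. Whether pools share litters was not tested. With the replicate block 0 genes were called, the median difference over the 32 genes was -0.01, and Birc5 was the 1 gene with an unadjusted p under 0.05 in limma. With 3 pools a group, the intervals printed above are per gene and not adjusted for the number of rows. Differences inside them remain possible, and genes below the background proxy may hold little signal.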
